A study of Mus musculus with 16 samples.

Results

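Tead proteins were mapped in sorted progenitor cells of the mouse cochlea at E12.0, an embryonic stage, and the regions described here lay in open chromatin but were held by fewer than 2 of the 2 lists of acetylated histone H3 lysine 27 (H3K27ac) from the same stage. They were chosen by merging both Tead peak lists and keeping regions with an interval from each list. Overlap of at least 1 bp was then asked for with 2 or more of 6 ATAC-seq lists. These were 3 lists from E12.0 and 3 from E13.5, so a region open at E13.5 alone could be kept. The choice left 409 of the 1590 regions that both Tead lists held, out of 74967 merged Tead regions in all. Of the other regions held by both Tead lists, 774 were open and in both E12.0 H3K27ac lists, and 407 were in fewer than 2 ATAC lists. Tead, ATAC and E12.0 H3K27ac values therefore chose the 409 regions, and they are given as description with no test.

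The E13.5 cells were sorted as p27-GFP positive and the E12.0 cells as Sox2-GFP positive, so age and reporter changed together and cannot be told apart. Of the 16 libraries, each stage had 2 for RNA, 3 for ATAC-seq and 2 for H3K27ac by CUT&RUN, and E12.0 had 2 more by CUT&RUN with a pan-Tead antibody. ATAC-seq cuts accessible DNA with a transposase, and CUT&RUN releases the DNA around an antibody-bound protein. No source used here says whether libraries came from separate litters or animals, so the spread behind each p-value is that of these libraries and may be technical.

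Tead transcription factors bind DNA but need a co-activator, such as Yap or Taz, to raise transcription, and kinases of the Hippo cascade keep both co-activators out of the nucleus. H3K27ac is laid down by acetyltransferases at active promoters and enhancers, while accessible DNA without the mark is also found at poised or silenced elements and at insulators. In the embryonic cochlea Yap and Tead act in the growth of the prosensory progenitors, which later form hair cells and supporting cells and which p27, a cyclin-dependent kinase inhibitor, marks as they leave the cell cycle.

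The sequences below were picked to show where the letters of a Tead core (GGAATG, or CATTCC on the other strand, in capitals) stand in members at promoters. A core was in 8 of 73 promoter stretches of 30 bases or more inside members, so most had none. Each is the part of the 250 bases before a gene's start site that lies inside a member region, 5′ to 3′ on the gene's strand, from RefSeq's table for GRCm38.p6. The first 6 hold a core and the last, from the member at a start site with the best rank in both Tead lists, holds none. They run from Cdk16 (chrX:20688176-20688333, plus strand) and H4c8 (chr13:23530794-23531043, plus) through Actn4 (chr7:28962473-28962582, minus), Chmp2a (chr7:13034778-13034984, minus), Id3 (chr4:136143572-136143821, plus) and Ipo13 (chr4:117915000-117915249, minus) to Blcap (chr2:157566362-157566611, minus).
Cdk16: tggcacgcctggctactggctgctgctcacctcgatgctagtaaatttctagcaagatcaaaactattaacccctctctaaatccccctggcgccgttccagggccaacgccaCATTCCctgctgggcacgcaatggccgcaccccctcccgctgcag
H4c8: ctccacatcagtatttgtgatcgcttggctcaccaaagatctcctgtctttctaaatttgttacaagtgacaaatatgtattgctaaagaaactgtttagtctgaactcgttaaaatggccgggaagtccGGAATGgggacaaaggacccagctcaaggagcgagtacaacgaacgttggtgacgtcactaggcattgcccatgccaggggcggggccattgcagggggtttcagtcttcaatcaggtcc
Actn4: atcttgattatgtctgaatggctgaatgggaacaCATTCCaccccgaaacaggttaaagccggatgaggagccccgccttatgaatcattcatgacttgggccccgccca
Chmp2a: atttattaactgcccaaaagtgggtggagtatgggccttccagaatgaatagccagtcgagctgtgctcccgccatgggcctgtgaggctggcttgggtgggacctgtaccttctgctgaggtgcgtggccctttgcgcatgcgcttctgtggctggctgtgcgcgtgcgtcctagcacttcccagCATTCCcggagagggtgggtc
Id3: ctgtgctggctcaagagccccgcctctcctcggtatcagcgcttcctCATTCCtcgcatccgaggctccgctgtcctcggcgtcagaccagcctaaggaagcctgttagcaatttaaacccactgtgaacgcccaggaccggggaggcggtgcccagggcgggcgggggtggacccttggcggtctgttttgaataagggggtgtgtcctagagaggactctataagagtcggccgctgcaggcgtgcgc
Ipo13: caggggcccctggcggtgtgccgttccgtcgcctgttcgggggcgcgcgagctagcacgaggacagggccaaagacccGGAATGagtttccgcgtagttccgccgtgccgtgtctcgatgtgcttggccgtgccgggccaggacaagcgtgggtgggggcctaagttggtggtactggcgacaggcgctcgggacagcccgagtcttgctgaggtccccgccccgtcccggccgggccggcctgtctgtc
Blcap: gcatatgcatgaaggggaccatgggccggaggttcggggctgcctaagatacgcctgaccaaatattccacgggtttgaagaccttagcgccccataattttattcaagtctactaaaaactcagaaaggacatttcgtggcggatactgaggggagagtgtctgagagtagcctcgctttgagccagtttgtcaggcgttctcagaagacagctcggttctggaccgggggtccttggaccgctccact
The core began 137 bases before a start site of Cdk16, 120 before H4c8, 216 before Actn4, 21 before Chmp2a, 203 before Id3 and 172 before Ipo13. The Actn4 stretch also held the longer Tead letters ACATTCCA and the AP-1 letters TGANTCA, searched on both strands.

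Over all member regions, 65 overlapped 78 distinct promoter windows of 300 bases (250 before to 50 after a start site). GGAATG was found on either strand in 12 of the 78 windows (15.4%), against 8.82% of the 499 windows on open Tead regions in both E12.0 H3K27ac lists and 14.7% of all 32817 windows in the table. ACATTCCA, which contains the core, was in 2 windows (2.56%) and 1.36% of all windows. TGANTCA was in 5 windows (6.41%) and 7.81% of all windows. A match says that the letters are there, and no match says nothing of a factor. Away from start sites no genome sequence was used here, so the letters under most Tead summits were not read.

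The labels' name for the tissue was set against marker genes. Summed TMM-scaled CPM (counts scaled to library size) of 8 prosensory markers were 4603 and 4761 at E13.5, against 2119 and 1977 at E12.0. The 8 include Sox2 and Cdkn1b, the genes of the sorting reporters, so the sort may set this sum in part. By the edgeR test used below, 5 of the 8 were higher and 1 lower, beside 22.4% and 23.5% of all genes tested. Summed CPM of 7 mesenchymal markers were 363 and 465 at E13.5, against 1273 and 1141 at E12.0, and of 5 glial markers 211 and 224 at E13.5, against 84.6 and 98.8 at E12.0. Neuronal markers summed to 24.4 and 21.2 CPM at E13.5, against 35.5 and 44.4 at E12.0. Melanocyte markers summed to 2.76 and 27.2 CPM at E13.5, against 0.275 and 0.118 at E12.0. Over the 4 libraries immune markers summed to 1.19 to 12 CPM and endothelial markers to 0.0953 to 4.4. Erythroid markers summed to at most 0.143 CPM, with no count of Hbb-y. The part of these other cells in the results below was not tested, and in bulk RNA fewer cells of a type and less RNA per cell cannot be told apart. Summed expected counts were 17057751 and 19570946 at E13.5, against 9412326 and 9810603 at E12.0.

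Most members were not free of the mark at E12.0. Of the 409 regions, 310 (75.8%) were in the E12.0 H3K27ac list of replicate 1 alone, 30 (7.33%) in that of replicate 2 alone and 69 (16.9%) in neither, so the wording "not consistently acetylated" rests mainly on absence from the list of replicate 2. That list was the longer of the pair, with 92839 intervals against 64887 in replicate 1. Per the labels, replicate 1 of E12.0 H3K27ac and replicate 1 of Tead were made with the KAPA HTP kit, and the other CUT&RUN libraries with Accel 2S Plus. The part of the kit was not tested. With the list of replicate 2 left out, the rule kept 99 regions, and with the list of replicate 1 left out, 379.

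Distances to the absent list varied. In the replicate 1 members the closest interval of the replicate 2 list lay at a median of 6986 bp, and in the replicate 2 members the closest interval of replicate 1 lay at a median of 7430 bp. Both E12.0 H3K27ac lists had an interval within 1000 bp of 79 members (19.3%) and within 5000 bp of 161 (39.4%). For regions in fewer than 2 ATAC lists these shares were 18.9% and 34.9%, but that class was not filtered on H3K27ac. Both E12.0 lists overlapped 34 of its regions in 0 ATAC lists and 9 in 1 ATAC list, while by the rule they overlapped no member together. The shares of the 2 classes are therefore not like for like. In the replicate 1 members the replicate 2 list came within 1000 bp at 65 of 310. At E13.5 both lists had an interval within 1000 bp of 125 members (30.6%) and within 5000 bp of 193 (47.2%). Members in the replicate 1 list also sat lower in it. Their median percentile by −log10 p was 78.0 and their median fold, the authors' ratio of signal over local background, was 3.55. The 774 open regions just outside the rule, in both lists, had 94.3 and 4.81 in the same list.

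**Figure D1:**
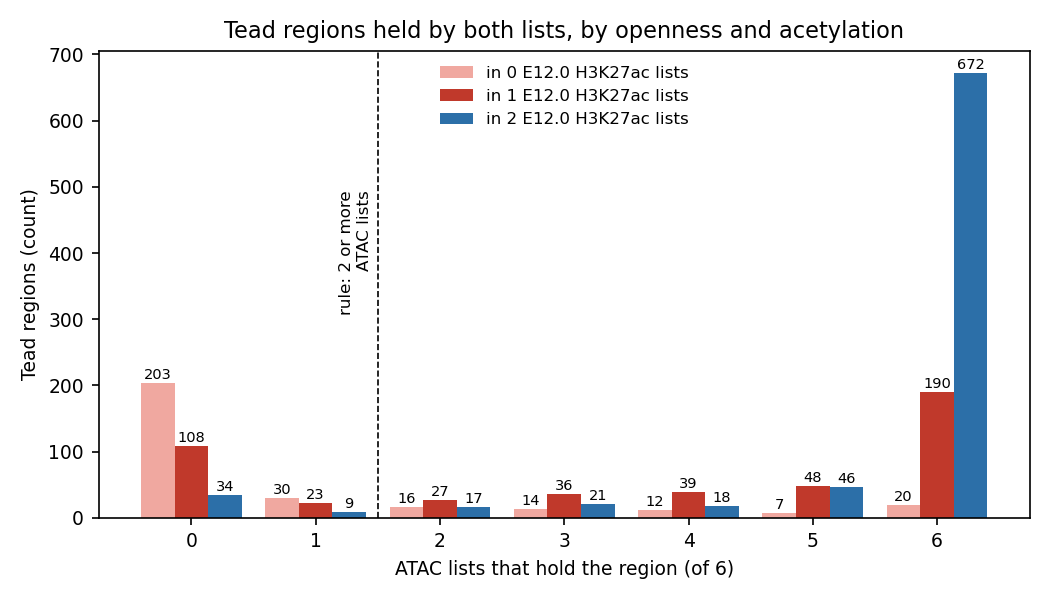
Tead regions held by both Tead lists (vertical axis, count), by the number of ATAC lists that hold them (horizontal axis, 0 to 6) and, in colour, by the number of E12.0 H3K27ac lists that hold them. The members are the light and dark red bars right of the dashed line, and the tallest of these, at 190 regions, is in 6 ATAC lists and 1 H3K27ac list.

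More members were listed as open at E13.5 than at E12.0. The 3 E13.5 ATAC lists held 375, 377 and 378 of the 409 members (91.7%, 92.2% and 92.4%), against 279, 315 and 251 (68.2%, 77.0% and 61.4%) in the 3 E12.0 lists. The E13.5 ATAC lists were also longer, with 151927 to 161637 intervals against 99248 to 119970 at E12.0, and their part in this difference was not tested. In 210 members (51.3%) all 6 lists had an interval, and in 99 (24.2%) all 3 E13.5 lists and 1 or 2 E12.0 lists had one. Another 34 (8.31%) were in all 3 E13.5 lists and no E12.0 list, and 22 (5.38%) were in 2 E13.5 lists and no E12.0 list. Only 6 (1.47%) were in E12.0 lists alone. At the edge of the rule, 43 members were in exactly 2 ATAC lists with a median ATAC percentile of 37.6, and 53 regions were left out with 1 ATAC list and a percentile of 36.0.

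The E13.5 H3K27ac lists had no part in the rule. Replicate 1 held 321 of the 409 members (78.5%, Wilson 95% interval 74.2 to 82.2) and replicate 2 held 98 (24.0%, 20.1 to 28.3). Both lists held 85 members (20.8%, 17.1 to 25.0), 1 list held 249 (60.9%) and neither held 75 (18.3%). The replicate 1 list had 118017 intervals and the replicate 2 list 76022, and the part of list length in this gap was not tested. Replicate 1 also held more than replicate 2 in the other classes, with 97.4% and 54.7% of open Tead regions in both E12.0 lists and 21.6% and 4.96% of the open regions without a Tead interval described next. The intervals cover counting error over regions, which are not replicates, and with 2 lists at a stage no test between stages was made.

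Beside the members, both E13.5 lists held 418 (54.0%, 50.5 to 57.5) of the 774 open regions in both E12.0 lists and 31 (7.62%) of the 407 regions in fewer than 2 ATAC lists. Of 109623 open regions without a Tead interval and in fewer than 2 E12.0 H3K27ac lists, both E13.5 lists held 2.16% and neither held 75.6%. These last regions were narrower, with a median of 407 bp against 635 bp in the members, and a wider region has more room for an overlap. They were also less often in an E12.0 H3K27ac list, with 11.5% in replicate 1 and 5.5% in replicate 2, against 75.8% and 7.33% of members. The 2 sets were thus not matched in E12.0 acetylation, and the part of Tead in the gap was not tested.

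By their E12.0 state, both E13.5 lists held 70 (22.6%) of the replicate 1 members, 6 (20.0%) of the replicate 2 members and 9 (13%) of the 69 members in neither E12.0 list. Of those 69, 28 (40.6%) were in no E13.5 list either, so none of the 4 H3K27ac lists held them. By openness, both E13.5 lists held 53 (25.2%) of the members in all 6 ATAC lists and 3 (8.82%) of the 34 that were open in all 3 E13.5 lists and no E12.0 list.

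**Figure D2:**
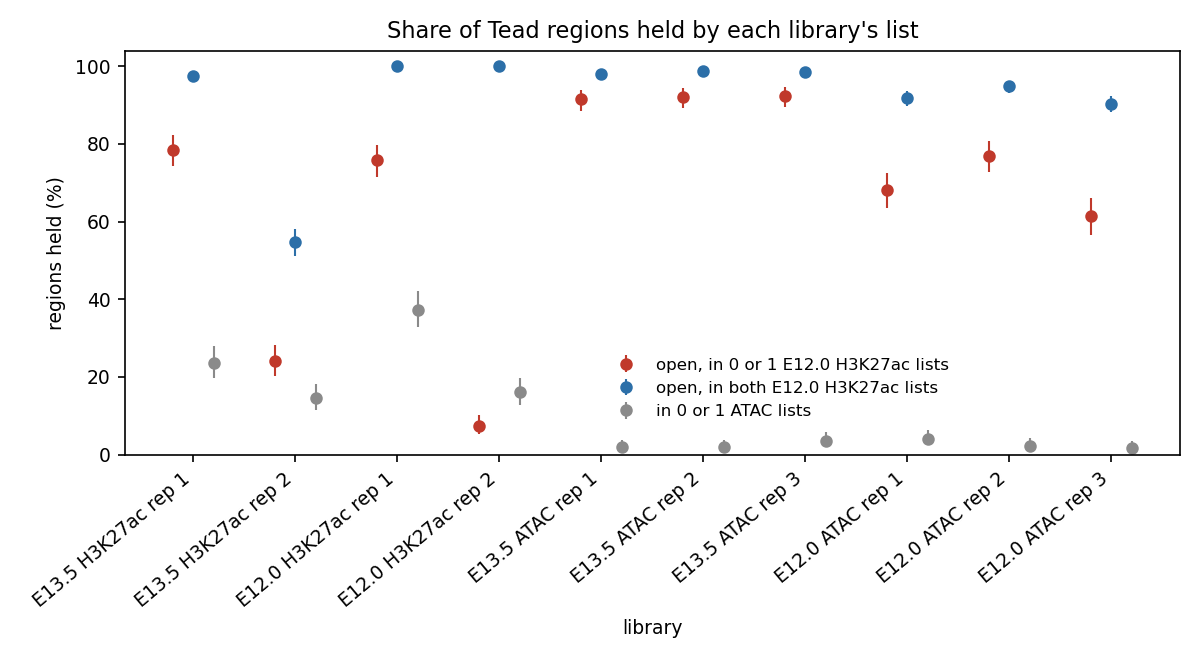
Percent of regions (vertical axis) held by the peak list of each H3K27ac and ATAC library (horizontal axis), for members (red), open Tead regions in both E12.0 H3K27ac lists (blue) and Tead regions in 0 or 1 ATAC lists (grey), with Wilson 95% intervals as bars. Members were held by 78.5% and 24.0% in the 2 E13.5 H3K27ac lists, between the other classes, while the E12.0 H3K27ac and ATAC shares were set in part by the rule.

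Width and position are given beside the other classes of Tead regions, as values without a test. Their width had a median of 635 bp (330 to 2066), against 1054 bp in open regions in both E12.0 H3K27ac lists and 554 bp in regions in fewer than 2 ATAC lists. Their Tead fold had a median of 2.72 (1.89 to 15.1) in replicate 1 and 2.38 (1.5 to 9.28) in replicate 2. Their median Tead percentile was 61.3 in replicate 1 and 72.4 in replicate 2, against 68.6 and 94.0 in the acetylated class and 68.6 and 52.9 in regions in fewer than 2 ATAC lists. The summits of the 2 Tead lists lay a median of 146 bp apart within a member.

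Gene spans of the RefSeq table held 258 members (63.1%), another 80 (19.6%) lay within 50 kb of a span and 71 (17.4%) lay farther. Start sites came from the promoter table, which covers 81.8% of the protein-coding genes it could list and none of chromosome 18, so distances can only be too long. Of 397 members that could be placed, 43 (10.8%) lay on a start site, against 272 (36.1%) of the acetylated class and 2 (0.499%) of the class in fewer than 2 ATAC lists. Within 1 kb of a start site lay 91 members (22.9%), against 345 (45.8%) and 14 (3.49%) in the same classes. The median distance was 33990 bp in members, 5536 bp in the acetylated class and 48436 bp in the class in fewer than 2 ATAC lists. Chromosomes 2 and 7 held the most members, with 33 each, and X held 5. Exons, introns and UTRs were not separated.

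**Figure D3:**
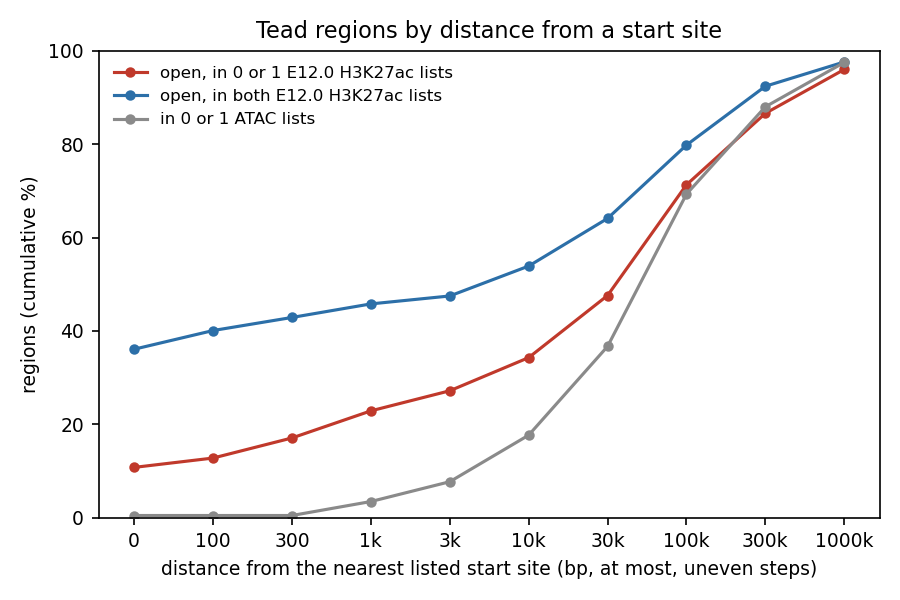
Cumulative percent of Tead regions (vertical axis) by distance to the nearest listed start site (horizontal axis, uneven steps from 0 bp), for members (red), open regions in both E12.0 H3K27ac lists (blue) and regions in 0 or 1 ATAC lists (grey). The members lie between the others at 1 kb, with 22.9% against 45.8% and 3.49%.

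The strongest members were ranked by the lower of their percentiles in the 2 Tead lists. First came a region in the gene of Lars2, the mitochondrial leucyl-tRNA synthetase (chr9:123461739-123462300), with Tead folds of 15.1 and 9.28. Its ATAC folds were 14.3 to 17.9 in the E13.5 lists and 18.1 to 22.2 in the E12.0 lists, and its H3K27ac fold was 5.13 in replicate 1 at E13.5 and 14.8 in replicate 1 at E12.0, with no interval in replicate 2 of either stage. It had the highest Tead fold of all members in each list. A region at the start of Blcap (chr2:157566294-157566902), whose promoter is printed above, had Tead folds of 4.69 and 4.44 and an H3K27ac fold of 15.6 in replicate 1 at E13.5 and of 7.56 in replicate 1 at E12.0. A region within Nav2, a gene of neurite outgrowth (chr7:49351714-49352574), had Tead folds of 4.54 and 3.78 and was in both E13.5 H3K27ac lists, with folds of 6.82 and 3.83.

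Claudins, the barrier proteins of tight junctions, had 2 of the 10 strongest members. One lay at Cldn9 (chr17:23683709-23684970, Tead folds 3.63 and 3.31), was in all 6 ATAC lists and was in both E13.5 H3K27ac lists, with folds of 6.02 and 3.29. The other lay in Cldn7 (chr11:69966457-69967284, Tead folds 3.33 and 4.26), was in all 6 ATAC lists and was in the replicate 1 H3K27ac list of each stage. The rest of the 10 lay 50548 bp from Cwc22 (chr2:77996904-77997610), in or at Gm42346 (chr4:145439763-145440520), Gtpbp1 (chr15:79690067-79690817) and H2bc18 (chr3:96269537-96270211), and 41672 bp from Gm21560 (chr14:6169529-6170269). The Cwc22 region was open in 2 E12.0 lists alone and yet was in both E13.5 H3K27ac lists.

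In all, 9 members were in neither E12.0 H3K27ac list and in both E13.5 lists, and the best 5 of these 9 by Tead rank can be named. They lay in Lrguk (chr6:34029108-34029974), in Ano10 (chr9:122247917-122248614), 429 bp from Tmem11 (chr11:60863505-60864023), 58079 bp from Cwc22 (chr2:78004435-78004819) and 1389271 bp from the nearest gene, Slc39a10 (chr1:48315047-48316153). The Lrguk region had E13.5 H3K27ac folds of 6.73 and 3.59, and at E12.0 the nearest H3K27ac intervals lay 42335 and 45787 bp away. It was open in all 6 ATAC lists, with folds of 15.1 to 18.2 at E13.5 and 7.21 to 16.1 at E12.0. At the Cwc22 region the E12.0 intervals lay 536 and 530 bp away, and at the Tmem11 region the replicate 1 interval lay 249 bp away.

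In all, 4 miRNA hairpins lay within 5 kb of a member. Mir125b-1 lay 1168 bp from a member that was in 5 ATAC lists and both E13.5 H3K27ac lists (chr9:41583170-41584012, Tead folds 2.62 and 2.30). Its 5′ arm, shown because the miR-125 family is known for a role in developmental timing, reads as follows in RefSeq's table, with the seed (bases 2 to 8) in capitals.
mmu-miR-125b-5p: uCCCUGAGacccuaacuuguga
No small-RNA library was used here, so its level is not given.

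The nearest protein-coding genes within 50 kb of a member numbered 327, and RNA was not used by the rule. Of these, 291 passed the filter on low counts and were tested, with 59 higher (20.3%) and 82 lower (28.2%) at E13.5 against E12.0 (edgeR quasi-likelihood test, adjusted p threshold 0.05). In total 48.5% of them were called, and over all 15982 genes tested the background was 45.9% called, 22.4% higher and 23.5% lower. Of the 12662 RefSeq protein-coding genes tested, 44.3% were called, 23.0% higher and 21.3% lower, with a median log2 fold change of 0.10. Among genes near members the median was -0.11, against 0.05 for all genes tested. With limma on log2(TPM + 1), 116 rose and 27 fell (background 53.6% called, 41.2% higher and 12.5% lower). That scale moved the median over all genes to 0.75 and over the nearest genes to 0.71, so the RNA changes below hold relative to TMM scaling.

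Genes near the other classes, and near members split by other lists, were counted the same way. Near open Tead regions in both E12.0 H3K27ac lists, 128 of 583 genes tested were higher and 147 lower, and near regions in fewer than 2 ATAC lists 43 of 205 were higher and 51 lower. Among members in both E13.5 H3K27ac lists, 13 of 61 nearest genes were higher and 13 lower. Among members in neither E13.5 list, 13 of 49 were higher and 11 lower. Among members open in all 3 E13.5 ATAC lists and no E12.0 list, 7 of 25 were higher and 6 lower. Over these 5 sets 42.6% to 52.0% of genes were called, beside the background of 45.9%, and the differences between sets were not tested.

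**Figure D4:**
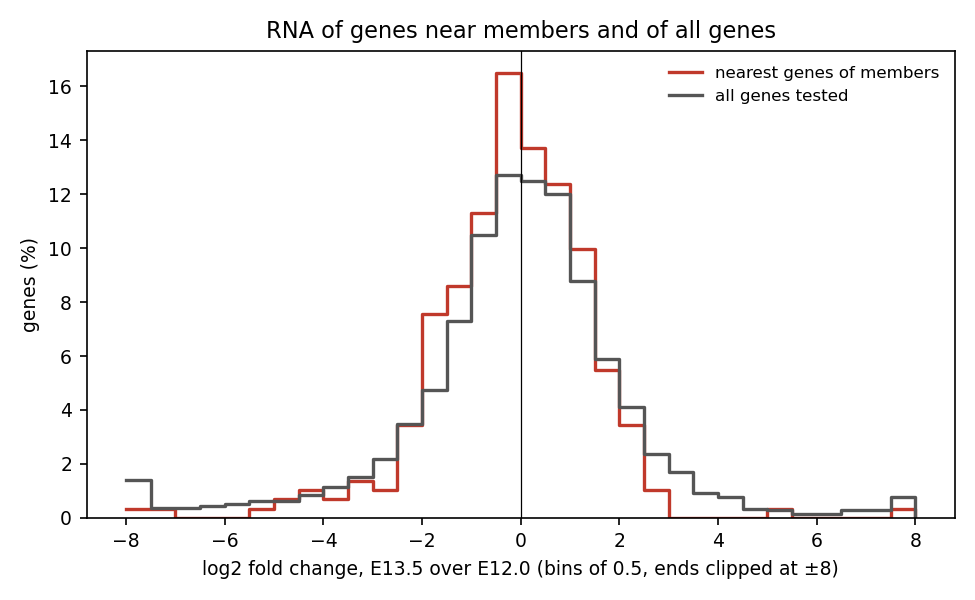
Percent of genes (vertical axis) by log2 fold change of RNA, E13.5 over E12.0 (horizontal axis, bins of 0.5), for the 291 tested nearest genes of members (red) and all 15982 genes tested (grey). Both outlines are centred near 0, with medians of -0.11 and 0.05.

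Among the listed genes of the Hippo cascade 3 had a member, and only Tead2 among them passed the test. Of these, 2 are described here. Tead2, a Tead factor itself, held a member within its span (chr7:45216939-45217657, Tead folds 3.42 and 2.52). Its RNA was 112 and 90.6 CPM at E13.5, against 176 and 175 CPM at E12.0 (log2 fold change -0.80 ± 0.24, SE, edgeR adjusted p = 0.0207). The libraries did not overlap, but the sign turned on log2(TPM + 1) (0.21, limma adjusted p = 0.626). The call was also lost when replicate 2 of E13.5 was left out (adjusted p = 0.129) or replicate 1 or 2 of E12.0 (0.0758 and 0.0721). At this region the E12.0 H3K27ac replicate 2 list had an interval 210 bp away. Fat1, an atypical cadherin upstream of Hippo signalling, had a member (chr8:44936729-44937520, Tead folds 2.57 and 2.49) open in the 3 E13.5 ATAC lists alone. Its RNA was 178 and 130 CPM at E13.5 and 114 and 131 CPM at E12.0 (edgeR adjusted p = 0.317). On log2(TPM + 1) it was called higher (1.74, limma adjusted p = 0.0119).

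Of the listed Yap/Tead target genes, Asap1 alone had a member (chr15:64232245-64232973). This gene of an Arf GTPase-activating protein had 194 and 160 CPM at E13.5 and 247 and 245 CPM at E12.0, and the difference missed the threshold (log2 fold change -0.47 ± 0.24, edgeR adjusted p = 0.127). On log2(TPM + 1) it was called higher (1.56, limma adjusted p = 0.0145), so its direction depends on the scaling. In the whole lists, 5 of 27 tested Yap/Tead targets were higher and 8 lower (median log2 fold change -0.47). Of 33 Hippo components tested, 6 were higher and 13 lower (median -0.44). Over all genes tested 22.4% were higher and 23.5% lower, with a median of 0.05. Near the target genes lay 5 open Tead regions in both E12.0 H3K27ac lists.

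The listed prosensory genes had 4 members at 3 genes. Id3 and Id1 encode inhibitors of basic helix-loop-helix factors, and both are targets of BMP signalling. Id3 had a member over its start site (chr4:136143153-136144096, Tead folds 2.48 and 2.11), whose promoter with a core is printed above, and another 1796 bp from the gene (chr4:136147188-136147627). Its RNA was 437 and 560 CPM at E13.5, against 148 and 120 CPM at E12.0 (log2 fold change 1.90 ± 0.26, edgeR adjusted p = 0.000298). Id1 had a member 730 bp away (chr2:152738140-152739381, Tead folds 2.76 and 1.80), and its RNA was 127 and 192 CPM at E13.5, against 667 and 758 CPM at E12.0 (log2 fold change -2.16 ± 0.28, edgeR adjusted p = 0.000218). Id3 thus rose and Id1 fell, with no overlap between the stages in either gene, although both members were in all 6 ATAC lists and in the replicate 1 H3K27ac list of each stage. At the start-site member of Id3 the E12.0 H3K27ac replicate 2 list had an interval 88 bp away.

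Pax2, an otic transcription factor, held a member (chr19:44755927-44756542, Tead folds 2.57 and 2.58) and had 4.10 and 3.22 CPM at E13.5 and 6.46 and 6.36 CPM at E12.0 (log2 fold change -0.81 ± 0.59, edgeR adjusted p = 0.283). Over the list, 15 of 30 tested prosensory genes were higher and 8 lower (median log2 fold change 0.71), beside 22.4% and 23.5% over all genes tested. The genes of the sorting reporters, Cdkn1b for p27 and Sox2, had log2 fold changes of 4.65 ± 0.30 (edgeR adjusted p = 6.09e-06) and 2.07 ± 0.25 (0.000132), and the E13.5 cells alone were sorted for p27-GFP.

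Signalling receptors of 2 pathways held a member. Fgfr2, a receptor for fibroblast growth factors (chr7:130259843-130260445, Tead folds 2.59 and 1.96), had 52.8 and 47.2 CPM at E13.5, against 106 and 133 CPM at E12.0 (log2 fold change -1.26 ± 0.25, edgeR adjusted p = 0.00275). On log2(TPM + 1) its call was lost (-0.55, limma adjusted p = 0.253). Ptch1, the Hedgehog receptor (chr13:63566302-63567014, Tead folds 3.80 and 2.40), had 293 and 201 CPM at E13.5 and 98.1 and 179 CPM at E12.0. It was short of the threshold (0.83 ± 0.32, edgeR adjusted p = 0.0557) and past it with DESeq2 (adjusted p = 0.0352). With 1 library left out, its log2 fold change ran from 0.45 (without replicate 1 of E12.0) to 1.33 (without replicate 2 of E12.0). Of the 33 tested genes of the Notch, Wnt, Fgf and Hedgehog list, 9 were higher and 10 lower (median log2 fold change 0.36). Over all genes tested 22.4% were higher and 23.5% lower. Of the 30 listed cell cycle genes, only Rb1, the retinoblastoma protein that restrains entry into S phase, had a member (chr14:73303095-73303609). That region was in neither E12.0 H3K27ac list, with the nearest intervals 14422 and 20022 bp away, and in both E13.5 lists, with folds of 4.33 and 3.17. Its ATAC folds were 3.74 to 5.18 in the E13.5 lists, and at E12.0 replicate 2 alone had an interval, with 5.90. Rb1 RNA was 56.6 and 65.3 CPM at E13.5 and 28.7 and 43.2 CPM at E12.0 (log2 fold change 0.76 ± 0.30, edgeR adjusted p = 0.0593). Of 30 cell cycle genes tested, 2 were higher and 18 lower (median -1.50), beside the same shares over all genes. This count is of the whole list, and the E13.5 cells alone were sorted for p27-GFP. The part of the sort was not tested.

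**Figure D5:**
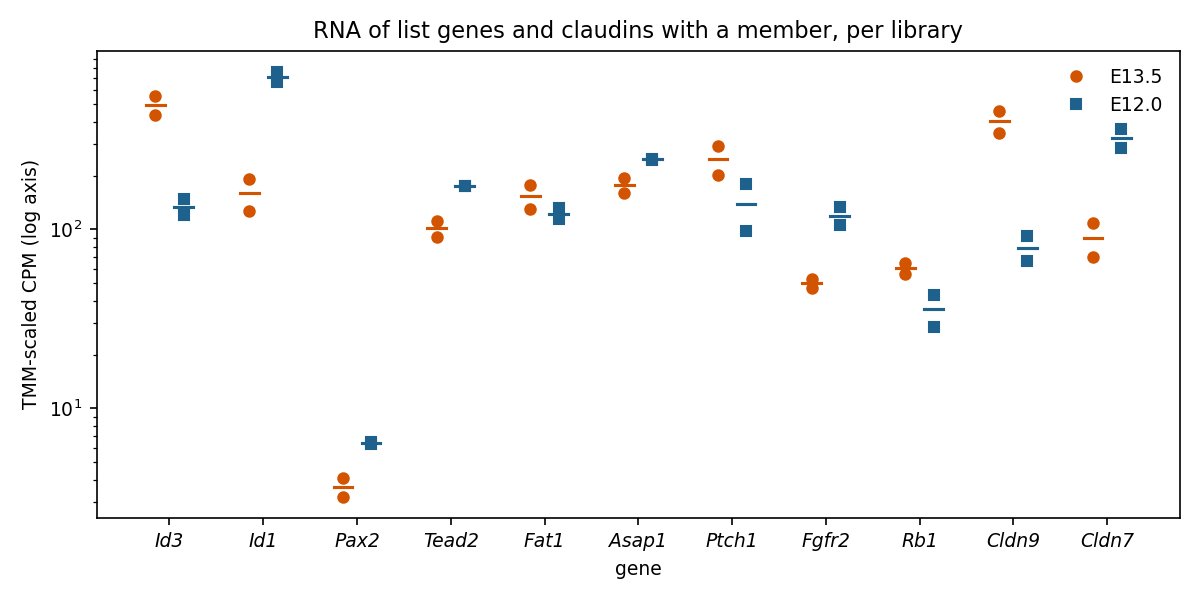
TMM-scaled CPM (vertical log axis) of 11 genes with a member nearby (horizontal axis), per RNA library, for E13.5 (orange circles) and E12.0 (blue squares), with the mean of 2 libraries as a line. Id3 and Cldn9 are higher at E13.5 and Id1, Cldn7 and Fgfr2 lower, with no overlap between the stages.

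The claudin genes of the strongest members moved apart in the same way. Cldn9, which in mice is needed for hearing, had 348 and 457 CPM at E13.5, against 91.5 and 66.6 CPM at E12.0 (log2 fold change 2.35 ± 0.28, edgeR adjusted p = 0.000127). Cldn7 had 70.6 and 108 CPM at E13.5, against 362 and 285 CPM at E12.0 (-1.85 ± 0.29, edgeR adjusted p = 0.000575). The stages did not overlap in either gene. Blcap fell (52.9 and 65.3 CPM at E13.5, against 130 and 133 CPM at E12.0, -1.15 ± 0.25, edgeR adjusted p = 0.00376) but lost its call on log2(TPM + 1) (-0.25, limma adjusted p = 0.559). Nav2, with 134 and 84.8 CPM at E13.5 and 120 and 92.3 CPM at E12.0, overlapped between the stages (edgeR adjusted p = 0.913).

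Lars2 had 70.5 and 103 CPM at E13.5, against 609 and 1042 CPM at E12.0 (log2 fold change -3.25 ± 0.34, edgeR adjusted p = 5.81e-05). The mitochondrial ribosomal RNA mt-Rnr2 moved with it and took 0.295% and 0.18% of the counts at E13.5, against 17.0% and 13.2% at E12.0. Lars2 is known in mouse to carry a stretch that resembles this RNA, so reads could be split between the 2 genes, and the value of Lars2 is uncertain for that reason. Whether the same holds for the Tead, ATAC and H3K27ac intervals there was not tested.

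The largest changes among genes near members with at least 10 CPM at a stage and no overlap between stages spanned unlike functions. C2cd4b, with a member 24811 bp away, had 14.4 and 20.5 CPM at E13.5, against 0.963 and 0.118 CPM at E12.0 (log2 fold change 5.05 ± 0.77, edgeR adjusted p = 0.000559). Elmo1, which with Dock proteins activates the GTPase Rac, had 59.6 and 33.1 CPM at E13.5, against 6.33 and 6.47 CPM at E12.0 (2.85 ± 0.40, edgeR adjusted p = 0.000326). Its member (chr13:20454270-20455109) was in all 6 ATAC lists and both E13.5 H3K27ac lists. Cdk16, a cyclin-dependent kinase of the PCTAIRE group, had 201 and 189 CPM at E13.5, against 28.7 and 43.1 CPM at E12.0 (2.44 ± 0.28, edgeR adjusted p = 0.000104). Its member (chrX:20687381-20688333) covers a start site and holds the core shown above. The N-glycan mannosyltransferase gene Alg3 (2.78 ± 0.60) and the DNA-binding gene Arid5b (2.27 ± 0.59) rose as well, beside Cldn9.

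On the other side, Igf2bp1, an RNA-binding protein gene of fetal growth, had 80.8 and 54.5 CPM at E13.5, against 1051 and 1146 CPM at E12.0 (log2 fold change -4.02 ± 0.30). Its member (chr11:96007728-96008166) lay 1784 bp from the gene and was in 5 ATAC lists and no E13.5 H3K27ac list. Grn, the progranulin gene, had 43.0 and 48.7 CPM at E13.5, against 984 and 534 CPM at E12.0 (-4.05 ± 0.34). Its member (chr11:102431301-102431639) was in all 6 ATAC lists, neither E12.0 H3K27ac list and 1 E13.5 list. B4galt5, a galactosyltransferase of glycolipid synthesis, had 6.81 and 10.7 CPM at E13.5, against 217 and 226 CPM at E12.0 (-4.66 ± 0.32), and its member (chr2:167342588-167343366) was in both E13.5 H3K27ac lists although the gene fell. The sialyltransferase gene St3gal3 (-4.52 ± 0.33), the axonemal dynein gene Dnah14 (-5.30 ± 0.50) and the spindle gene Psrc1 (-3.87 ± 0.34) fell too, each with an edgeR adjusted p of at most 3.39e-05.

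The printed promoters with a Tead core belonged to genes that moved in different directions. Actn4, an actin crosslinker, rose (582 and 689 CPM at E13.5, against 135 and 168 CPM at E12.0, log2 fold change 2.07 ± 0.26, edgeR adjusted p = 0.000169), as did Cdk16 and Id3. Chmp2a, a subunit of the membrane-scission complex ESCRT-III, fell (57.2 and 50.9 CPM at E13.5, against 240.0 and 115 CPM at E12.0, -1.72 ± 0.34, edgeR adjusted p = 0.00233). The importin gene Ipo13 had 46.2 and 61.8 CPM at E13.5 and 42.0 and 48.0 CPM at E12.0 (edgeR adjusted p = 0.470). H4c8 was not tested.

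Histone genes of the replication-dependent clusters, a list chosen after values were seen, had 9 members at 8 genes (2.2% of 409). Beside them stood 11 (1.42%) of the 774 acetylated regions and 0 of the 407 regions in fewer than 2 ATAC lists. The 11 include a region nearest to H1f0, a histone gene outside these clusters. All 9 members were in 6 ATAC lists and 4 were in both E13.5 H3K27ac lists. Of the 11 acetylated regions these counts were 9 and 2, and over all 409 members the shares were 51.3% and 20.8%. H2bc18 fell (0.143 and 0.466 CPM at E13.5, against 3.99 and 3.30 CPM at E12.0, log2 fold change -3.53 ± 0.91, edgeR adjusted p = 0.00999). Its call was lost without replicate 1 or 2 of E12.0 (adjusted p = 0.087 and 0.0544) or replicate 1 of E13.5 (0.0624). H2bc4 (-0.41, edgeR adjusted p = 0.688) and H4c4 (-2.15, edgeR adjusted p = 0.107) were not called. H4c6 had no count at E13.5 and was at least 16.1-fold lower there than at E12.0, with the group floor set at 3 counts. Most transcripts of these genes lack a poly(A) tail and the libraries were selected for it, and near-identical copies share reads, so their levels are uncertain.

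No gene had more than 2 members, and 11 genes had 2. Besides Id3 and H4c8 they were Mcoln2, Zbtb20, Pdzrn4, Itln1, Zfp609, Zfp982, Spata13, Rere and Smpd3. Rere, a co-regulator gene of retinoic acid signalling, had 128 and 88.4 CPM at E13.5, against 206 and 256 CPM at E12.0 (log2 fold change -1.09 ± 0.27, edgeR adjusted p = 0.00784). On log2(TPM + 1) the sign turned (0.47, limma adjusted p = 0.316). The call was lost without replicate 2 of E12.0 (adjusted p = 0.0562) or of E13.5 (0.0517). Zbtb20, a zinc-finger repressor, had 1070 and 654 CPM at E13.5 and 806 and 627 CPM at E12.0 (edgeR adjusted p = 0.486). Itln1, a lectin gene, had no count at E13.5 and 5.23 and 4.36 CPM at E12.0, at least 71.2-fold lower at E13.5. Zfp982 had 6.81 and 7.50 CPM at E13.5 and no count at E12.0, at least 37.6-fold higher at E13.5, and its family has near-identical copies that can share reads. Mcoln2 had no count in the 4 libraries.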

How the data were processed

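The authors deposited 1 peak list per ATAC and CUT&RUN library, with replicates not pooled, and 1 RNA table per library. RNA tables hold expected counts per gene with its length, per the file headers. Each deposited peak has a fold (ratio of signal over local background), a −log10 p and −log10 q, and a score that was not used, per the file headers. Tools named in the submitters' processing notes are MACS2, UMI-tools and STAR, with the builds GRCm38 and mm10. Their versions are not given in the sources used here.

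Member regions and gene lists were chosen with earlier results of these data known. A list held a region when an interval overlapped it by 1 bp or more. Percentiles rank −log10 p within a list. Gene spans and promoters came from RefSeq tables of GRCm38.p6, and 324 of 327 nearest genes matched the RNA tables. Gene symbols matched 48349 of 48709 identifiers. Expected counts were rounded, filtered by filterByExpr, TMM-scaled and entered in edgeR 4.0.16 (quasi-likelihood test, 2 libraries against 2, Benjamini-Hochberg over 15982 genes, threshold 0.05). DESeq2 1.42.0 and limma 3.58.1 on log2(TPM + 1), with TPM computed from the deposited expected counts, were alternatives. The edgeR step was tested on simulated counts. SE is the absolute log2 fold change divided by the square root of F. A count of 10 was worth 0.424 to 1.38 CPM, and intervals and floors cover counting error only. Sampling noise did not account for the spread of replicates (chi-square over its degrees of freedom 50.8 at E13.5 and 32.7 at E12.0).

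Named regions were the 10 best by the lower Tead percentile, the 5 best in both E13.5 and neither E12.0 H3K27ac list, and up to 3 per gene list. Named genes were their nearest genes, genes with the most members, and the 6 largest and 6 smallest called changes with at least 10 CPM at a stage. The genes of printed promoters, the miRNA and the histone genes were chosen after their values were seen.

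Some results, including 1 nearest gene and 1 marker, are not reported here.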

Additional observations from a re-analysis of the deposited data

How the results depend on the processing

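The 409 members became 88 with Tead intervals of −log10 q of 2 or more, 696 with such H3K27ac intervals, 212 when all 3 E12.0 ATAC lists were asked for and 69 in neither E12.0 H3K27ac list; other rules for overlap or ATAC gave 366 to 387. Leaving out each library in turn gave 99 to 18246, with 18246 without Tead replicate 1, 1297 without Tead replicate 2 and 99 without E12.0 H3K27ac replicate 2. The share in both E13.5 H3K27ac lists, 20.8%, was 28.4%, 13.1%, 25.0% and 13% under the first 4 of these settings. Leaving out each library used by the rule gave 8.02% (without Tead replicate 2) to 21.4% (without E13.5 ATAC replicate 2). It was 12.1% without Tead replicate 1 and 15.2% without E12.0 H3K27ac replicate 2. With 1 E13.5 H3K27ac list left out, the value is the share in the other list alone, 24.0% without replicate 1 and 78.5% without replicate 2. The cause of these shifts was not tested beyond the fewer or more intervals each setting admits.

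Of the nearest genes, 59 were higher and 82 lower at E13.5. The counts were 116 and 27 on log2(TPM + 1) and 11 and 10 for members in neither E12.0 H3K27ac list, where fewer genes were tested. DESeq2, no filter, a 10 kb limit and gene spans alone gave 44 to 71 higher and 67 to 89 lower, and leaving out each RNA library 43 to 52 and 65 to 73. With the replicate number as a block the counts were 62 and 81. Same-numbered RNA libraries did not deviate together (correlation 0.00816). With 2 libraries per stage this value cannot show whether they shared a litter or preparation. Over 37 named genes and 8 settings, 260 of 296 values kept their direction and side of the threshold, 16 gained and 10 lost the call, and 7 turned their sign with no call in either fit. Another 3 turned their sign with a call in 1 fit, Tead2 (0.21), Rere (0.47) and Asap1 (1.56), all on log2(TPM + 1). The cause was not tested. The Tead motif in summit windows was not searched for, since the genome sequence was not used here.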
